A study of Rattus norvegicus with 24 samples.

Results

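The cytosolic ribosomal protein genes are the genes whose products, with ribosomal RNA, build the ribosomes of the cytosol. They were selected on the gene name (Rps or Rpl followed by a number, Rplp0 to Rplp2, or Rpsa, without numbered copies such as Rps6_2) and on measured values, a mean TPM of at least 10 over the 24 libraries (TPM is a transcript level corrected for length, with the same total in each library). Of 64 matching names, 57 met the minimum, among 29539 genes in the table, and all 57 passed the filter on low counts. The levels that chose them are a description only. Just inside the minimum lay Rps27a at 19.7, Rps27l at 55.9 and Rps10l1 at 76.2 TPM, and just outside it lay Rps18 at 8.90, Rpl10l at 4.57 and Rpl31l4 at 2.48 TPM. The highest were Rps15 at 1324, Rpl32 at 1262 and Rpl17 at 1184 TPM.

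RNA was sequenced from 24 rat (Rattus norvegicus) brain samples after poly(A) selection, 8 in each of 3 groups. In the SKF group rats with a stab wound of the forebrain received SKF-81297, an agonist of the D1-like dopamine receptors, into the peritoneum once a day for 3 days from 1 h after the wound. The Vehicle group carries that word alone in the labels and was taken to be wounded brain treated with the carrier. Normal Control is named only so, and the labels do not say that it was sham-operated, so the wound, the surgery, the carrier and the piece of brain taken cannot be told apart in a comparison with it. Strain, age, sex, brain region and time of collection are not stated there. Nothing ties the 8 libraries of each group to separate animals, and p-values therefore measure the spread between libraries, which may be technical. Total counts per library ran from 8911339 to 12383368, both in Vehicle.

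A ribosome joins a small subunit, which reads the mRNA, to a large subunit, which forms the peptide bond, and most ribosomal proteins are present in a single copy per ribosome. Many mRNAs for ribosomal proteins begin with a run of pyrimidines, the terminal oligopyrimidine (TOP) tract, through which the kinase mTOR and the RNA-binding protein Larp1 control their translation and stability. Cells that grow, divide or enter an active state make more ribosomes, and in brain tissue the supply of ribosomes serves both neurons and glia.

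The starts of these genes are shown because the TOP tract sits there. RefSeq promoters (build GRCr8, while the counts were made on mRatBN7.2) were matched by symbol for 45 of the 57 genes. Printed 5′ to 3′ are 40 bases before to 25 bases from the annotated start. First come 6 genes with the largest changes reported below. Then come 2 genes chosen for CTTTC, a short form of the tract, at the start, and 2 genes with small changes. Pyrimidine runs are not limited to the genes chosen for CTTTC. Rps2, Rplp0, Rpl10a and Rps14 also have a run of at least 8 pyrimidines around the start, and Rps14 has CTTTC there. Capitals mark CTTTC or CTCGCGAG wherever they fall in the printed stretch. In Rpsa and Rpl7a the marked CTTTC lies too far before the annotated start to be counted below.
Rps27l, chr8:76443618-76443682, plus strand: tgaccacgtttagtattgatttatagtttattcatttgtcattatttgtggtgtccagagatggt
Rps2, chr10:14251808-14251872, plus strand: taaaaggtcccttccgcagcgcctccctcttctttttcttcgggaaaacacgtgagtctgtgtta
Rplp0, chr12:46718366-46718430, minus strand: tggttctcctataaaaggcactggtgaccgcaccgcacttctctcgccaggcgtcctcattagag
Rpsa, chr8:128728839-128728903, plus strand: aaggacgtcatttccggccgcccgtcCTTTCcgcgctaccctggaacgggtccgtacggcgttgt
Rpl10a, chr20:6390493-6390557, plus strand: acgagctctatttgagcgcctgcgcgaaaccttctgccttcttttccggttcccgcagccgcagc
Rpl7a, chr3:30637096-30637160, plus strand: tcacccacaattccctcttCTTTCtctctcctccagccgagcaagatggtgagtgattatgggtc
Rpl28, chr1:78083508-78083572, minus strand: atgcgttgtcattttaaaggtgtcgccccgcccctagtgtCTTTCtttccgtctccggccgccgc
Rpl19, chr10:83519024-83519088, plus strand: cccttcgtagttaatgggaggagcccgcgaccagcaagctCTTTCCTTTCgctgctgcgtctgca
Rpl26, chr10:54109652-54109716, plus strand: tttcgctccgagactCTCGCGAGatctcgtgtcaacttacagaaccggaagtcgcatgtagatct
Rps14, chr18:56498220-56498284, plus strand: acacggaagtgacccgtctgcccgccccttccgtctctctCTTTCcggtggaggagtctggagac

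On the sense strand, from 10 bases before to 25 after the annotated start, CTTTC was found in 17 of 45 ribosomal protein promoters (37.8%), against 3.53% of 10657 promoters of genes tested and 4.12% of all 33469 in the table. A run of at least 8 pyrimidines in the same stretch was found in 62.2% of the 45, against 11.5% of genes tested. Over the whole window of 300 bases, CTCGCGAG, which reads the same on both strands, was in 13.3% against 1.73%. CTTCCGG on either strand was in 26.7% against 16.3%, CACGTG, the E-box bound by Myc, in 8.89% against 9.15%, and TATAAA on either strand in 11.1% against 6.61%. These letters are a description of the annotated windows and show no binding. The 17 genes with CTTTC had a median log2 fold change of 0.42 in Vehicle against Normal Control, and the other 28 had 0.59, while over the promoters of all genes tested the medians were 0.09 with CTTTC and -0.01 without. These differences were not tested. Lack of CTTTC is not lack of a pyrimidine run: Rps2, Rplp0 and Rpl10a, among the 28, have a run of at least 8 in that stretch. The change was not computed for genes grouped by such a run.

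mRNA of the ribosomal protein genes was higher in both wounded groups than in Normal Control, nearly throughout and mostly by less than 2-fold. Together the 57 genes held from 2.85% to 3.91% of all TPM in SKF libraries (median 3.37%), from 2.77% to 3.94% in Vehicle libraries (median 3.47%) and from 1.97% to 2.41% in Normal Control libraries (median 2.11%). Every SKF and every Vehicle library lay above every Normal Control library, and the SKF and Vehicle ranges overlapped. The lowest Vehicle library was number 5, at 2.77%. In raw counts the share was 1.23% to 1.71% in SKF, 1.16% to 1.73% in Vehicle and 0.819% to 1.04% in Normal Control. On the TPM scale the median log2 fold change over all genes was itself 0.09 in SKF and 0.11 in Vehicle against Normal Control (limma), and that of the members was 0.62 and 0.64. In bulk tissue, more cells rich in these mRNAs and more such mRNA per cell cannot be told apart. The ratio of small to large subunit TPM was 0.657 to 0.719 in SKF (median 0.682), 0.648 to 0.750 in Vehicle (median 0.669) and 0.665 to 0.703 in Normal Control (median 0.676). SKF 7 and 8 and Vehicle 3, 4 and 6 lay above every Normal Control library in this ratio.

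**Figure D1:**
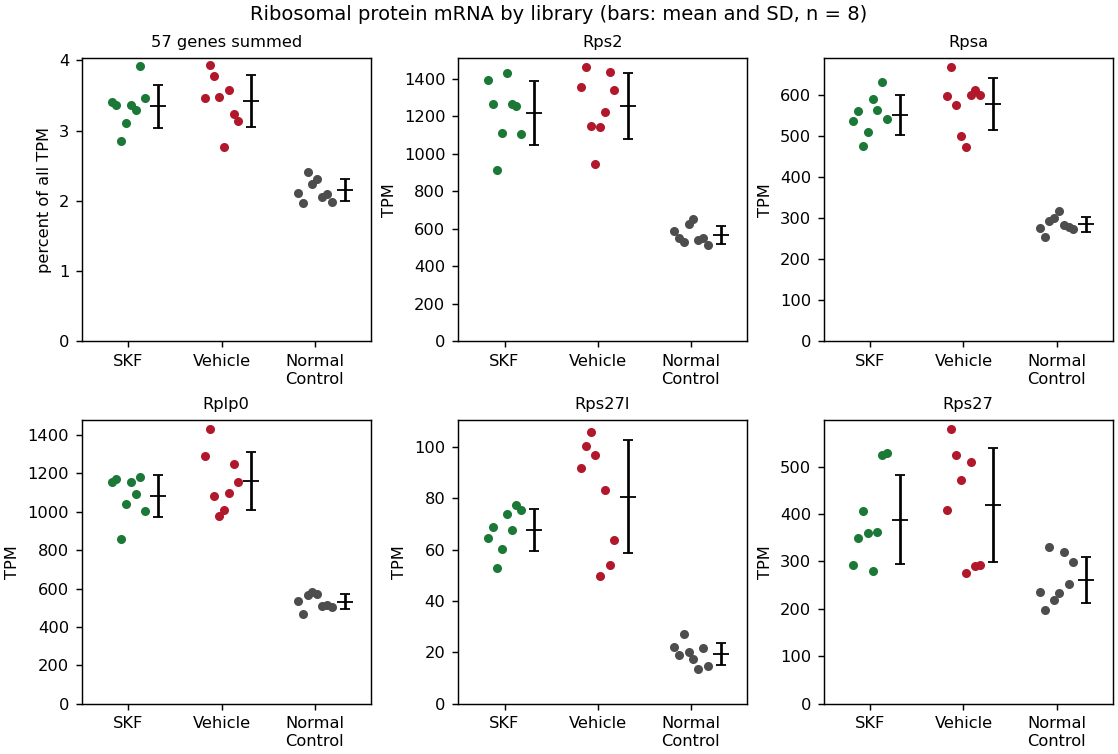
Summed share of all TPM (percent) and TPM of 5 genes in each library, with SKF, Vehicle and Normal Control from left to right, each point 1 library and each bar the mean and SD of 8. For the summed share, Rps2, Rpsa, Rplp0 and Rps27l every SKF and Vehicle library lies above the Normal Control libraries, while for Rps27 the groups overlap.

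Each gene was tested with edgeR's quasi-likelihood test on the counts of all 24 libraries, and adjusted p-values are Benjamini-Hochberg over 14421 genes. In Vehicle against Normal Control 55 of 57 genes passed an adjusted p of 0.05 and were higher, where 26.9% of all genes tested were, and 0 were lower, where 27.1% of all genes were. In SKF against Normal Control 55 of 57 were higher, against 25.5% of all genes, and 0 lower, against 24.7%. The median log2 fold change was 0.52 in each of these comparisons, while over all genes tested it was -0.01 in each. In Vehicle against Normal Control the middle 50% of the genes ran from 0.41 to 0.64. These comparisons share the Normal Control libraries. At least 2-fold higher were 3 genes in Vehicle (7.69% of all genes) and 1 in SKF (6.74% of all genes). In log2 CPM (counts scaled to library size), every Vehicle library lay above every Normal Control library for 27 of 57 genes, against 11.6% of all genes, and every SKF library for 38 of 57, against 11.5%.

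**Figure D2:**
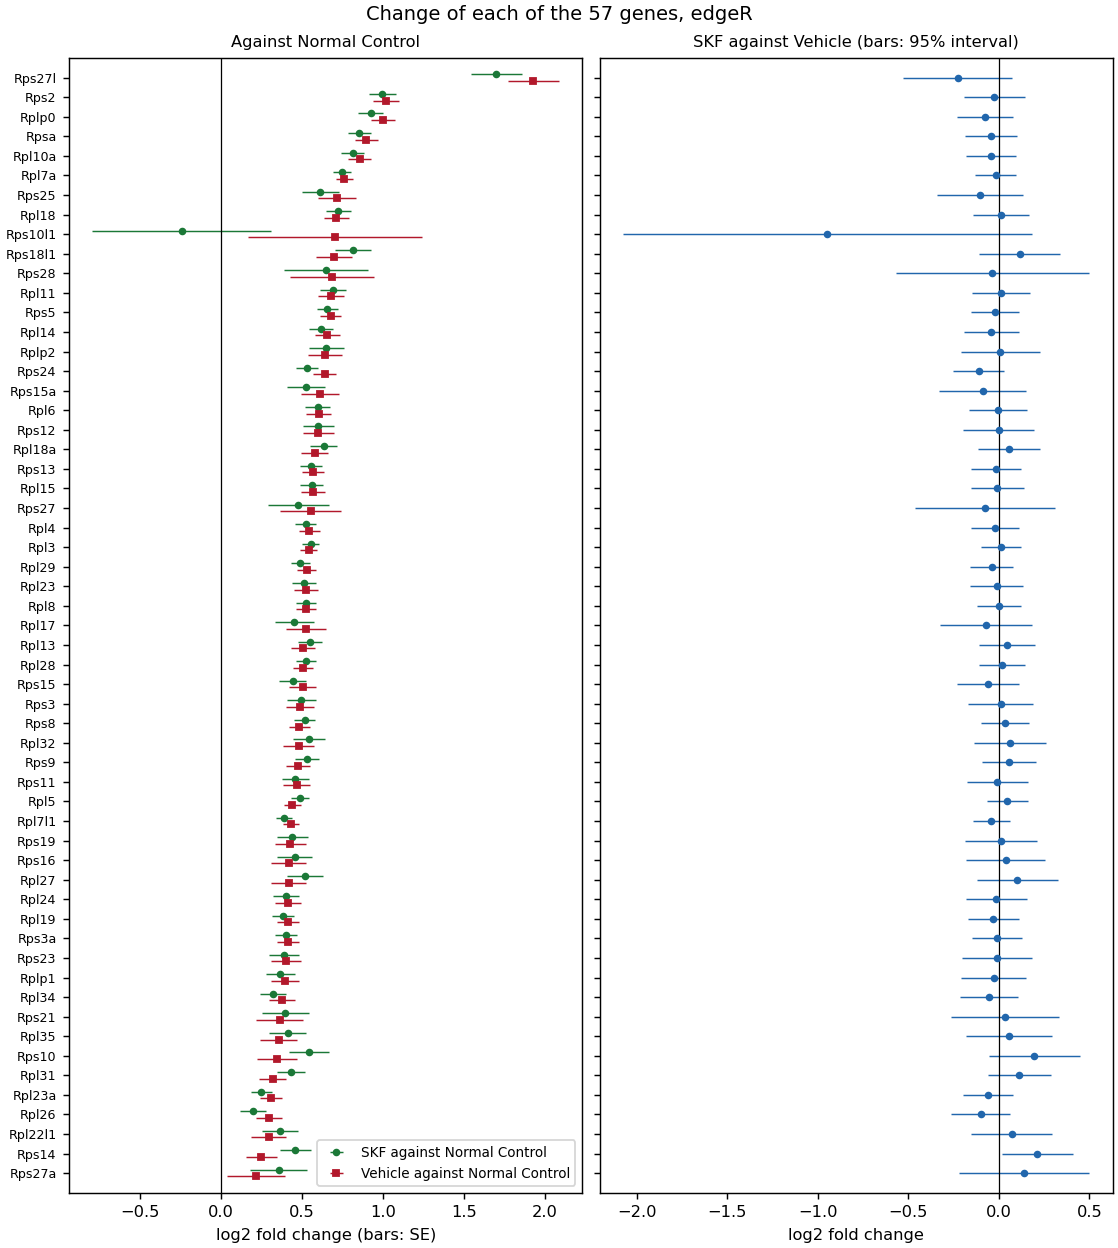
Log2 fold change of each of the 57 genes, ordered by the change in Vehicle against Normal Control. On the left, green points give SKF and red squares Vehicle against Normal Control with their SE, nearly all above 0. On the right, SKF against Vehicle with 95% intervals, nearly all of which cross 0.

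Among proteins of the small subunit, 22 of 23 genes were higher in Vehicle, with a median log2 fold change of 0.49, and 22 of 23 in SKF, with a median of 0.52. Rps2, whose protein lies by the mRNA entry of the small subunit, rose most. It had 915 to 1431 TPM in SKF (median 1260), 948 to 1463 in Vehicle (median 1280) and 514 to 650.1 in Normal Control (median 551). No wounded library reached down to the Normal Control range. The log2 fold change of Rps2 was 1.00 ± 0.08 (SE, n = 8 per group, edgeR adjusted p = 8.77e-11) in SKF and 1.02 ± 0.08 (adjusted p = 4.22e-11) in Vehicle. Rpsa, a protein of the small subunit also known as the laminin receptor precursor, had 476 to 634 TPM in SKF, 474 to 670.5 in Vehicle and 256 to 319 in Normal Control, with medians of 553, 599 and 282. Its groups did not overlap with Normal Control either, and it rose by 0.85 ± 0.07 in SKF and by 0.90 ± 0.07 in Vehicle (edgeR adjusted p = 9.86e-11 and 2.99e-11).

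Rps25, which in human and yeast cells serves initiation at some internal ribosome entry sites, had 127 to 202 TPM in SKF (median 148), 114 to 221 in Vehicle (median 164) and 79.9 to 105 in Normal Control (median 93.5). The TPM ranges did not overlap with Normal Control, but in log2 CPM the Vehicle libraries overlapped with it. Rps25 rose by 0.61 ± 0.12 in SKF and by 0.72 ± 0.12 in Vehicle (edgeR adjusted p = 8.15e-05 and 9.75e-06). Rps3, at the mRNA entry, rose by 0.50 ± 0.09 in SKF and 0.49 ± 0.09 in Vehicle. Rps19, mutated in Diamond-Blackfan anaemia in humans, rose by 0.44 ± 0.10 and 0.43 ± 0.10 (edgeR adjusted p of these 4 tests 3.74e-05 to 0.000507). For Rps19 and Rps3 the Vehicle range overlapped with Normal Control.

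Rps14, lost in the human 5q deletion syndrome, changed least among the small subunit genes that passed in Vehicle. It had 308 to 417 TPM in SKF (median 363), 245 to 451 in Vehicle (median 315) and 204 to 307 in Normal Control (median 257). The SKF libraries all lay above the Normal Control libraries, and the Vehicle libraries overlapped with them. Rps14 was higher by 0.46 ± 0.10 in SKF (edgeR adjusted p = 0.000253) and by 0.25 ± 0.10 in Vehicle (adjusted p = 0.0323). The Vehicle call was lost without Normal Control 6, 7 or 8 or Vehicle 2, 3, 4 or 6, each in turn, with adjusted p from 0.0520 to 0.111. Rps27a, which encodes ubiquitin fused to a ribosomal protein, did not pass: it had 17.5 to 30.4 TPM in SKF, 10.5 to 30.8 in Vehicle and 11.5 to 21.6 in Normal Control, with changes of 0.36 ± 0.18 (edgeR adjusted p = 0.0956) in SKF and 0.22 ± 0.18 (adjusted p = 0.319) in Vehicle. At this low level its groups overlapped, and Rps27a was the member that varied least with the others (median r = -0.02 with the other members within groups).

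All 26 large subunit genes were higher in Vehicle (median 0.52) and all 26 in SKF (median 0.52), by the same edgeR test. Rpl10a, which forms the stalk by which spent transfer RNA leaves, had 538 to 710.4 TPM in SKF (median 608), 562 to 743 in Vehicle (median 638) and 289 to 357 in Normal Control (median 327). Rpl7a, a protein of the large subunit surface, had 766 to 895 TPM in SKF (median 862), 783 to 993 in Vehicle (median 877) and 436 to 511 in Normal Control (median 470.5). Neither gene's wounded libraries overlapped with Normal Control. Rpl10a rose by 0.81 ± 0.07 in SKF and 0.86 ± 0.07 in Vehicle, and Rpl7a by 0.74 ± 0.06 and 0.76 ± 0.06 (edgeR adjusted p from 5.52e-12 to 1.31e-10 over the 4 tests). Rpl18 rose by 0.72 ± 0.08 in SKF and 0.71 ± 0.08 in Vehicle, its libraries again apart from Normal Control.

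Rpl5 and Rpl11, which bind the large subunit's small ribosomal RNA and, when unassembled in human and mouse cells, inhibit the ubiquitin ligase Mdm2, both rose. Rpl5 had 269.9 to 315 TPM in SKF (median 306), 262 to 333 in Vehicle (median 301) and 192 to 207 in Normal Control (median 201). Rpl11 had 437 to 580.1 TPM in SKF (median 505), 403 to 595 in Vehicle (median 520) and 259 to 325 in Normal Control (median 288). Both were apart from Normal Control in every wounded library. The changes were 0.49 ± 0.05 in SKF and 0.44 ± 0.05 in Vehicle for Rpl5, and 0.69 ± 0.08 and 0.68 ± 0.08 for Rpl11, with edgeR adjusted p from 2.73e-08 to 1.32e-07. Rpl3, by the peptidyl transferase centre, rose by 0.55 ± 0.05 in SKF and 0.54 ± 0.05 in Vehicle, and Rpl4, which lines the exit tunnel, by 0.52 ± 0.07 and 0.54 ± 0.07. Rpl23a, at the tunnel's exit, rose by 0.25 ± 0.07 and 0.31 ± 0.07 (edgeR adjusted p = 0.00304 and 0.000353).

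The smallest called change of the large subunit was that of Rpl26, another exit-site protein. It had 660 to 982 TPM in SKF (median 846), 739 to 1045 in Vehicle (median 913) and 620 to 817 in Normal Control (median 664), so the groups overlapped. Rpl26 was higher by 0.19 ± 0.08 in SKF (edgeR adjusted p = 0.0422) and by 0.30 ± 0.08 in Vehicle (adjusted p = 0.00255). The SKF call was lost in 12 of 24 fits that left out a library: Normal Control 1, 2, 4, 5, 7 or 8, Vehicle 1, or SKF 1, 2, 5, 7 or 8, with adjusted p from 0.0508 to 0.131. This gene was named after its values were seen.

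The 3 stalk proteins, which recruit elongation factors to the large subunit, were all higher in both comparisons (medians 0.65 in SKF and 0.64 in Vehicle). Rplp0, the base of the stalk, had 859 to 1184 TPM in SKF (median 1123), 979 to 1429.7 in Vehicle (median 1126) and 468 to 581 in Normal Control (median 526), with no overlap with Normal Control. It rose by 0.92 ± 0.08 in SKF (edgeR adjusted p = 7.81e-11) and by 1.00 ± 0.08 in Vehicle (adjusted p = 1.29e-11). Rplp2 rose by 0.65 ± 0.11 in SKF and 0.64 ± 0.11 in Vehicle, and Rplp1, its partner, by 0.37 ± 0.09 and 0.39 ± 0.09 (edgeR adjusted p from 1.52e-05 to 0.00101). Apart from Rps27l set against Rps27, described below, differences in change between members were not tested.

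The members named as paralogs of another ribosomal protein are Rps27l, Rps10l1, Rps18l1, Rpl7l1 and Rpl22l1. Rps27l, a close relative of Rps27, changed most of all 57 genes in both comparisons. Its libraries held 52.8 to 77.6 TPM in SKF (median 68.4), 49.7 to 106 in Vehicle (median 87.3) and 13.4 to 27.1 in Normal Control (median 19.5). Every wounded library stood above the highest Normal Control library. The log2 fold change of Rps27l was 1.70 ± 0.16 (edgeR adjusted p = 1.33e-09) in SKF and 1.93 ± 0.16 (adjusted p = 1.10e-10) in Vehicle. Of the transcripts of the pair Rps27l and Rps27, Rps27l made up 11.5% to 20.9% in SKF, 14.0% to 18.3% in Vehicle and 4.02% to 8.75% in Normal Control, in TPM.

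The log2 ratio of Rps27l to Rps27 averaged -2.49 ± 0.34 (SD, n = 8) in SKF, -2.37 ± 0.16 in Vehicle and -3.76 ± 0.45 in Normal Control. It was higher than in Normal Control by 1.26 ± 0.20 (SE) in SKF and by 1.39 ± 0.17 in Vehicle, in 8 of 8 libraries each. Over all 12870 assignments of libraries to groups, the exact permutation p (two-sided) was 0.0001554 for each, the smallest the test can give, and 0.000233 after Benjamini-Hochberg adjustment over 3 comparisons. SKF and Vehicle differed by -0.12 ± 0.13 (exact permutation p = 0.383). The pair was chosen for this test after its values were seen.

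Rps27 itself, at 280.5 to 528 TPM in SKF (median 361), 275 to 579 in Vehicle (median 440.4) and 197 to 330.3 in Normal Control (median 244), overlapped between all groups. It was higher by 0.48 ± 0.19 in SKF (edgeR adjusted p = 0.0398) and by 0.55 ± 0.19 in Vehicle (adjusted p = 0.0166). The SKF call of Rps27 was lost without Normal Control 1, 2, 4, 5 or 7 or SKF 3, 7 or 8, each in turn, with adjusted p from 0.0605 to 0.0981. Rpl22l1, a paralog of Rpl22, was higher by 0.36 ± 0.11 in SKF (edgeR adjusted p = 0.00710) and 0.29 ± 0.11 in Vehicle (adjusted p = 0.0263). Its Vehicle call was lost without Normal Control 6 or 8 or Vehicle 3 or 4, with adjusted p from 0.0549 to 0.0891. Rpl7l1, at 74.9 to 97.8 TPM in SKF, 83.3 to 96.0 in Vehicle and 57.1 to 67.5 in Normal Control, had the smallest SD within groups of all members (0.088 in log2 CPM) and rose by 0.39 ± 0.05 and 0.43 ± 0.05.

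Rps10l1 did not pass in either comparison (edgeR): its change was -0.25 ± 0.55 (adjusted p = 0.739) in SKF and 0.70 ± 0.54 (adjusted p = 0.285) in Vehicle. It was split within every group, holding 5.00% to 27.5% of the Rps10l1 and Rps10 TPM in SKF, 7.31% to 45.5% in Vehicle and 4.39% to 44.4% in Normal Control. Rps18l1 had 939 to 1502 TPM in SKF, 793 to 1568 in Vehicle and 558 to 809 in Normal Control, and rose by 0.81 ± 0.11 and 0.70 ± 0.11 (edgeR adjusted p = 8.69e-07 and 7.14e-06). Rps18, its near namesake just under the TPM minimum, was at 43.5 and 51.1 TPM in Vehicle 1 and 2 and at 2.92 to 8.63 TPM in the other 22 libraries. Vehicle 1 and 2 also stood apart at some numbered copies, though not at most of them. Rpl38_2 was at 135 and 156 TPM there and at 30.3 TPM or less elsewhere. Rps20_2 was at 93.9 and 25.4 TPM there and at 284 TPM or more elsewhere. Why these libraries differed was not tested. Ribosomal protein genes have many near-identical copies, and the sources used here do not state how reads shared between copies were counted, so the split within such pairs is uncertain.

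**Figure D3:**
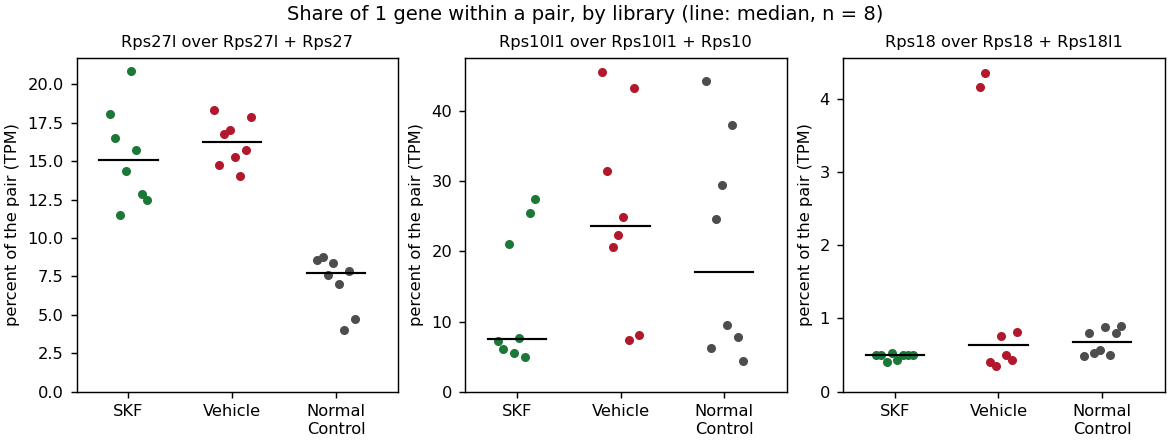
Share of 1 gene in the summed TPM of a pair (percent), by library, with SKF, Vehicle and Normal Control from left to right and a line at the median of 8. Rps27l takes a larger share in every SKF and Vehicle library than in Normal Control, Rps10l1 is split inside each group, and Rps18 stands out in 2 Vehicle libraries.

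SKF and Vehicle were set against each other to ask whether the agonist moved these genes in wounded brain. None of the 57 passed edgeR (0 called), as 0% of all 14421 genes did, and DESeq2 called 0 members. At an unadjusted p under 0.05 it was 1 of 57 genes, against 4.96% of all genes. The median log2 fold change was -0.01, with 33 genes lower and 24 higher in SKF. The 95% interval lay within 0.5 (log2) of no change for 54 of 57 genes, with a median distance of 0.166 from the estimate to its bounds. Those past it were Rps28, Rps27l at -0.53 to 0.07 and Rps10l1 at -2.08 to 0.18. A p that misses the threshold does not show that the groups were alike, and the intervals give what remains possible.

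Rps14 was the gene with the smallest p in SKF against Vehicle, at 0.21 ± 0.10 (edgeR unadjusted p = 0.0353, adjusted p = 0.937). Its SKF libraries lay inside the Vehicle range. Rps10 stood at 0.20 ± 0.12 and Rpl31 at 0.11 ± 0.08, with adjusted p = 0.937 and 0.952 (edgeR). Of those lower in SKF, Rps10l1 stood at -0.95 ± 0.54, Rps24 at -0.11 ± 0.07 and Rps27l at -0.23 ± 0.15, each with an edgeR adjusted p of 0.937.

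Libraries of a group varied together in these genes. Over 1596 pairs of members the median correlation of log2 CPM across 24 libraries, each taken from its group mean, was r = 0.64 (middle 50% from 0.41 to 0.76), while it was 0.21 over pairs of ribosome assembly genes and 0.16 over pairs of mitochondrial ribosome genes. These pairs share libraries, depth and, among members, short transcripts and high levels. The SD within groups was highest for Rps10l1 at 1.15, Rps28 at 0.52 and Rps27 at 0.39 (log2 CPM). It ran against transcript length, read from counts per TPM, with a Spearman rho of -0.43 over 57 genes, and against the mean log2 CPM with a rho of -0.37.

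Rps28, the shortest of the 57 by that measure, had 371 to 914 TPM in SKF (median 464), 280.5 to 959 in Vehicle (median 577) and 293 to 419 in Normal Control (median 335). It was at 689 TPM or more in SKF 7 and 8 and Vehicle 2, 3, 4 and 6, and at 573 TPM or less in the other 18 libraries. Rps27 was at 472 TPM or more in the same 6 libraries and at 409 TPM or less in the others. Of the 6, 5 are those with a ratio of small to large subunit TPM above every Normal Control library. Rps28 and Rps27 are themselves part of the small subunit sum in that ratio, so this overlap is not a separate observation. Rps28 was higher by 0.65 ± 0.26 in SKF (edgeR adjusted p = 0.0423) and by 0.68 ± 0.26 in Vehicle (adjusted p = 0.0307). Its SKF call was lost without Normal Control 1, 2, 4, 5, 7 or 8 or SKF 3, 7 or 8 (adjusted p from 0.0538 to 0.108), and its Vehicle call without Normal Control 4 or 5 or Vehicle 2, 3, 4 or 6 (0.0521 to 0.0783). Rps21, named like Rps28 after its values were seen, lost its Vehicle call without Normal Control 1, 4, 5, 6, 7 or 8 or Vehicle 2, 3, 4 or 6 (0.0531 to 0.1004) and its SKF call without SKF 7 or 8 (0.0756 and 0.0535).

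**Figure D4:**
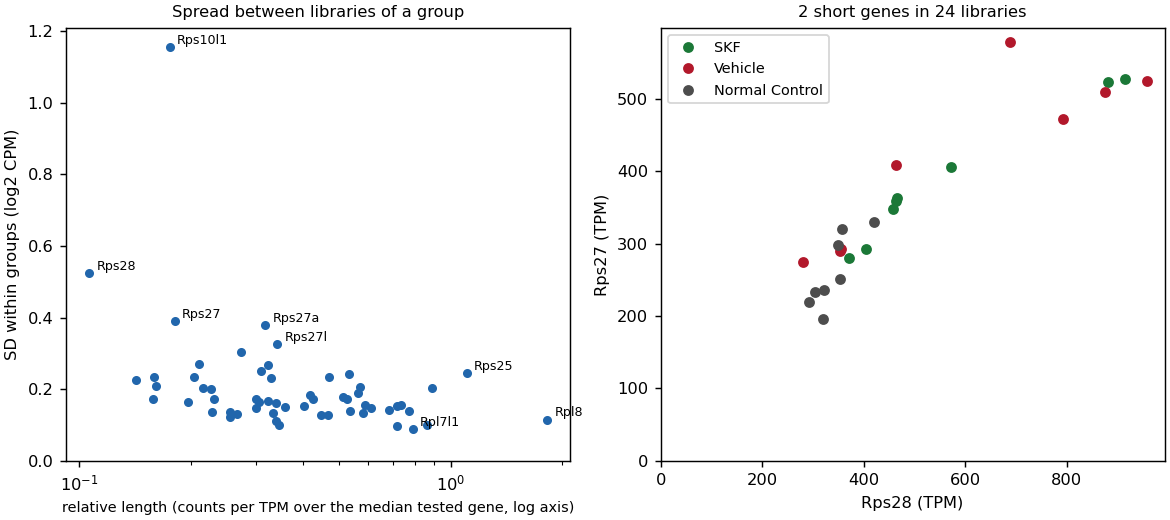
Left, the SD within groups (log2 CPM) of each of the 57 genes against its relative length on a log axis, highest for Rps10l1 and Rps28. Right, Rps28 against Rps27 (TPM) in the 24 libraries, where 6 libraries of SKF and Vehicle stand apart at the upper right.

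By length read from counts per TPM, the 10 shortest members had a median log2 fold change of 0.50 in SKF and 0.54 in Vehicle against Normal Control. The 10 longest by that measure had 0.54 and 0.59. Transcript length itself was not measured, and Rpl8, the longest here, stood at 1.82 times the median tested gene. Of the 57, 36 lie in the shortest decile of all genes tested by that measure and 44 in the decile with the highest level. Over all genes in the shortest decile 29.5% were higher in SKF and 30.6% in Vehicle, and in the highest decile 19.4% and 18.2%. The part of length or level in the change was not tested beyond these counts.

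Genes listed as markers of other cells moved with the same groups. The counts below stand beside shares over all genes tested of 25.5% higher and 24.7% lower in SKF. In Vehicle these shares were 26.9% and 27.1%. All 8 genes listed for blood-derived macrophages (Msr1, Cd14, Ccr2, Fn1, Cd44, Arg1, Vim and Lyz2) passed and were higher in both comparisons (edgeR). Their summed level was 790.4 to 1559 TPM in SKF, 1025 to 1515 in Vehicle and 114 to 187 in Normal Control. Which cells made these mRNAs was not tested. Neutrophil markers (6 of 6 tested higher) summed to 81.7 to 139 TPM in SKF, 143 to 376 in Vehicle and 6.24 to 12.5 in Normal Control. Markers of phagocytes (6 of 6 higher) summed to 1441 to 2565, 1863 to 2728 and 330 to 578 TPM in SKF, Vehicle and Normal Control, and those of dividing cells (6 of 6 higher) to 70.1 to 106, 63.3 to 106 and 8.23 to 12.9 TPM. Reactive astrocyte markers (4 of 4 tested higher) summed to 3133 to 3767 TPM in SKF, 2643 to 4263 in Vehicle and 285 to 615 in Normal Control, with Serpina3n listed at 0 in all 24 libraries. All 6 myelin and all 5 resting astrocyte markers were lower in both comparisons, and of 7 neuron markers 4 were lower in SKF and 5 in Vehicle. Of homeostatic microglia markers 0 of 6 tested were higher and 3 lower in SKF, and 1 higher and 2 lower in Vehicle, and Siglech was at 0 in Normal Control. Of 3 endothelial markers 2 were higher in each. The part of these cells in the change of the ribosomal protein genes was not tested.

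Other genes of the ribosome and its assembly, from lists drawn up with earlier results of these data known, were tested in the same fit. Of 15 further ribosome and TOP mRNA genes, 11 were higher in SKF and 11 in Vehicle, and 0 lower, with medians of 0.38 and 0.47. Among all genes tested, 25.5% were higher and 24.7% lower in SKF, and 26.9% and 27.1% in Vehicle. Pabpc1, the poly(A)-binding protein and a known TOP mRNA, rose by 0.94 ± 0.05 in SKF and 1.05 ± 0.05 in Vehicle. Npm1, a nucleolar chaperone, rose by 0.80 ± 0.06 and 0.81 ± 0.06, and Rack1, a scaffold on the small subunit, by 0.63 ± 0.06 and 0.69 ± 0.06. The elongation factor Eef1a1 rose by 0.50 ± 0.06 and 0.53 ± 0.06, while Eef1a2, the form of neurons and muscle, stood at -0.05 ± 0.08 and -0.18 ± 0.08 and did not pass (edgeR adjusted p = 0.592 and 0.0565). In Vehicle Eef1a2 passed as lower with DESeq2 (0.0385) and without Normal Control 3 or 4, Vehicle 1 or 5 or SKF 6 (0.0232 to 0.0498). Eef1a1 and Eef1a2 were named after their values were seen.

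Of 41 ribosome assembly genes, 35 were higher in SKF and 37 in Vehicle, and 0 lower, with medians of 0.43 and 0.42. Fbl, the methyltransferase fibrillarin, rose by 1.08 ± 0.11 in SKF and 1.01 ± 0.11 in Vehicle. Ddx21, a nucleolar helicase, rose by 0.90 ± 0.07 and 0.93 ± 0.07, and Gar1, of the pseudouridine-making particles, by 0.86 ± 0.17 and 0.86 ± 0.17 (edgeR adjusted p of these 6 tests from 2.76e-11 to 0.000121). Of 26 tested numbered copies of ribosomal protein genes, 11 were higher in SKF and 13 in Vehicle, and 0 lower. Their medians were 0.51 and 0.52. Among all genes tested, 25.5% were higher and 24.7% lower in SKF, and 26.9% and 27.1% in Vehicle. A numbered entry can be the main one of its name: Rps6_2 had 239 to 523 TPM, while Rps6_1 was at 0 TPM in every library. Rps6_2 rose by 0.57 ± 0.06 and 0.61 ± 0.06, and Rps4x_1 by 0.48 ± 0.07 and 0.49 ± 0.07.

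The mitochondrial ribosome, built from other genes, gave counts that depended on the scale. Of 68 tested, 15 were higher (22.1%, against 25.5% of all genes) and 1 lower in SKF, and 11 higher (16.2%, against 26.9%) and 2 lower in Vehicle, with medians of 0.07 and 0.02. With limma on log2(TPM + 1), an alternative applied to this list after its results were seen, 30 were higher in SKF (44.1%, against 32.7% of all genes) and 24 in Vehicle (35.3%, against 35.8%), and 0 lower. The medians there were 0.17 and 0.14, where all genes had 0.09 and 0.11. Mrps17 was higher by 0.91 ± 0.37 in Vehicle (edgeR adjusted p = 0.0418), and stood at 0.34 ± 0.38 in SKF (adjusted p = 0.482). The Vehicle call was lost without Normal Control 2, 5, 6, 7 or 8 or Vehicle 3, 4, 6 or 7, with adjusted p from 0.0556 to 0.130. Mrpl39 was higher by 0.26 ± 0.09 in SKF (a call lost without SKF 6, adjusted p = 0.0608) and 0.39 ± 0.09 in Vehicle, and Mrps18b by 0.35 ± 0.06 and 0.36 ± 0.06. Mrps18a was lower, at -0.20 ± 0.07 in SKF and -0.26 ± 0.07 in Vehicle, but did not pass on the TPM scale (adjusted p = 0.337 to 0.380 in SKF and 0.136 to 0.160 in Vehicle, limma), nor in SKF without Normal Control 2 or 5 (0.0509 and 0.0533). Mrpl51 stood at -0.05 ± 0.06 in SKF and was lower, at -0.17 ± 0.06, in Vehicle (edgeR adjusted p = 0.0312), a call lost on the TPM scale (0.596 to 0.619) and without Normal Control 3, 6 or 8 or Vehicle 3, 5 or 8 (0.0605 to 0.0709).

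Of 21 genes of growth signalling, 8 were higher and 5 lower in SKF, and 7 higher and 3 lower in Vehicle, with medians of 0.02 and 0.00, where 25.5% of all genes were higher and 24.7% lower in SKF, and 26.9% and 27.1% in Vehicle. With limma on log2(TPM + 1), 10 were higher and 2 lower in SKF, and 10 higher and 1 lower in Vehicle. Myc, a transcription factor that drives ribosomal protein and ribosomal RNA genes, rose by 3.21 ± 0.18 in SKF and 3.37 ± 0.18 in Vehicle (edgeR adjusted p = 2.84e-14 and 8.16e-15). Eif4ebp1, the repressor of cap-dependent initiation that mTOR switches off, rose by 1.64 ± 0.15 and 1.75 ± 0.15. Rheb, which activates mTOR complex 1, was lower, at -0.34 ± 0.08 in SKF and -0.42 ± 0.08 in Vehicle (edgeR adjusted p = 0.00111 and 9.33e-05). Mycn, a relative of Myc, was lower, at -0.88 ± 0.14 and -0.35 ± 0.14, the Vehicle call being lost in 6 of 12 alternatives (adjusted p from 0.0505 to 0.142), those on the TPM scale included, and without Normal Control 2 or 6 or Vehicle 1 or 7 (0.0615 to 0.0764). Tsc1, of the complex that restrains Rheb, stood at -0.16 ± 0.06 and -0.21 ± 0.06, with both calls lost on the TPM scale (0.543 to 0.579 in SKF and 0.339 to 0.372 in Vehicle) and the SKF call without Normal Control 2 or 5 or SKF 2 or 7 (0.0502 to 0.0709). In SKF against Vehicle 0 genes of these lists passed edgeR's adjusted threshold, and an unadjusted p under 0.05 was found for 1 of 15 further ribosome and TOP mRNA genes, 4 of 41 assembly genes, 1 of 26 copies, 4 of 68 mitochondrial ribosome genes and 2 of 21 growth signalling genes, where 4.96% of all genes tested had one.

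**Figure D5:**
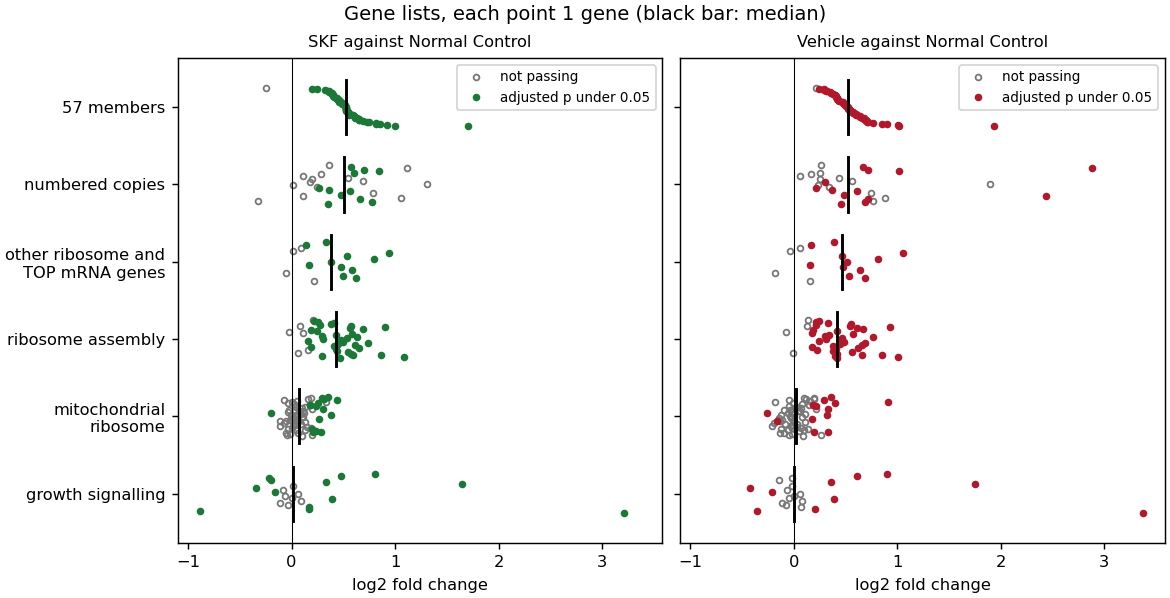
Log2 fold change of each gene of 6 lists (1 point per gene), SKF against Normal Control on the left and Vehicle against Normal Control on the right, filled where edgeR's adjusted p was under 0.05, with a black bar at the median. The members, their numbered copies, further ribosome genes and assembly genes have medians of 0.38 to 0.52, and the mitochondrial ribosome and growth signalling have medians of 0.00 to 0.07.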

How the data were processed

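RNA of 24 rat brain samples was sequenced after poly(A) selection with a directional kit, per the labels' protocols. The deposited values are whole read counts for each gene and, in another table, the authors' TPM for the same libraries. The build is mRatBN7.2, per the submitters' processing notes, and neither an aligner nor a counter is named in the sources used here.

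The main test was that of edgeR 4.0.16, run in R 4.3.3 on the counts (TMM, filterByExpr, robust quasi-likelihood, 1 fit of all groups, 21 residual degrees of freedom, 14421 genes, Benjamini-Hochberg threshold 0.05). The biological coefficient of variation was 16.2% at total counts of 8911339 to 12383368. The test was tested on simulated data. Log2 CPM used a prior count of 2. Promoters came from RefSeq (GRCr8). Other tools were limma 3.58.1, DESeq2 1.42.0, and, in Python 3.11.15, pandas 2.3.3, NumPy 2.4.6, Matplotlib 3.10.9 and SciPy 1.17.1.

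The members, lists and tests were chosen with earlier results of these data known. Genes were named by rule: the 8 largest called changes of each direction against Normal Control, the 3 smallest p of each direction in SKF against Vehicle, a fixed set of 28 names (17 are members), and the 3 largest called changes of each direction of 4 further lists, of which 1 gene is not reported here. Other genes named were chosen after their values were seen. The alternatives were another normalization, tool, unit, filter, pseudocount or set of libraries, the replicate number as a block, and each library left out in turn. The groups share replicate numbers, which pair no samples: same-number deviations correlated at -0.241 to 0.0783, so groups were compared unpaired.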

Additional observations from a re-analysis of the deposited data

Results flagged for a closer look

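Rplp2 in Normal Control 5 was at 746 TPM, far from the other 7 Normal Control libraries, which held 498 to 586 TPM. It was the only value of a single library that stood apart in this way among 84 groups of values looked at, and chance alone gives about 1 in 20 groups such a value. The change of Rplp2 kept its direction and its call in every fit that left out a library.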

How the results depend on the processing

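Over 12 alternatives, 50 to 55 of 57 genes were higher in Vehicle against Normal Control and 51 to 56 in SKF against Normal Control, and 51 to 55 in each when a library was left out in turn. In every one of these, 0 were lower, and in SKF against Vehicle 0 passed in either direction. The median change ran from 0.51 to 0.62 in SKF and from 0.52 to 0.64 in Vehicle against Normal Control, and from 0.47 to 0.54 in each with a library left out. In SKF against Vehicle it ran from -0.03 to 0.00, and from -0.05 to 0.03 with a library left out. The upper values are on the TPM scale, where the median of all genes stood 0.09 higher in SKF and 0.11 higher in Vehicle with a pseudocount of 1. There 4996 of 7292 called genes were higher in SKF and 5476 of 7884 in Vehicle, against 3682 of 7239 and 3879 of 7783 on counts. With the replicate number as a replicate block, 53 genes were higher in each comparison with Normal Control, and Rps14 lost its Vehicle call (0.24, edgeR adjusted p = 0.0641). Rps27a passed in SKF on the TPM scale (limma adjusted p = 0.0464 and 0.0476) and with only the 2 groups in the fit (0.0392). Without Normal Control 4 and 6 together, 51 genes were higher in SKF and 50 in Vehicle. Rps10l1 had the widest interval of all 57. Poly(A) selection and unstated counting of reads shared between copies limit all levels, and no gene was measured as protein.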
